A study of Homo sapiens with 36 samples.

Results

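The data described here are the levels of 10 chemokine genes, CXCL1, CXCL2, CXCL3, CXCL5, CXCL8, CXCL10, CXCL11, CXCL16, CCL2 and CCL20, in 4 human prostate cancer (PCa) cell lines. The genes were taken by symbol, the values of all their transcripts were summed, and they make up 10 of the 27852 named genes in the table. RNA sequencing was done in 36 libraries that fall into 16 groups. The lines were C4-2 and C4-2B, which form mainly osteoblastic lesions in bone and are called BPCa cells, and DU145 and 22Rv1, which form mainly osteolytic lesions and are called LPCa cells. Each line was cultured in 4 ways until day 5, with a porous filter between the chambers so that only the PCa cells were meant to enter the library. Mono-culture without an added agent had 3 libraries per line. Co-culture with MG63, a human osteosarcoma line used as an osteoblast-like cell, had 2 per line. Mono-culture with recombinant mouse sRANKL at 50 ng/mL had 2 per line, and co-culture with RAW264.7 (spelled RAW246.7 in the sample labels), a mouse monocytic line that RANKL turns towards osteoclasts, had 2 per line in the same RANKL. Every group is 1 established cell line, so a contrast of BPCa with LPCa is a contrast of 2 lines with 2 lines. The 2 BPCa lines are not independent, since C4-2B is a subline of C4-2.

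Chemokines are small proteins that guide leukocytes by acting on G-protein-coupled receptors. CXCL1, CXCL2, CXCL3, CXCL5 and CXCL8 carry the ELR motif and draw neutrophils, mainly through CXCR2, whereas CXCL10 and CXCL11 are interferon-inducible ligands of CXCR3 on T cells. CCL2 draws monocytes through CCR2, CCL20 draws CCR6-bearing lymphocytes and dendritic cells, and CXCL16 is made as a membrane protein that can be shed and binds CXCR6. Many of these genes are textbook targets of NF-kB, and in bone several of them act on the recruitment of osteoclast precursors.

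The 7 CXC genes other than CXCL16 lie on chromosome 4 (GRCh38, GENCODE 29), with CXCL8, CXCL1, CXCL5, CXCL3 and CXCL2 within 359 kb and CXCL10 and CXCL11 together within 20.3 kb. CXCL16 and CCL2 lie on chromosome 17 and CCL20 on chromosome 2. RefSeq promoters (GRCh38.p14, 250 bases before to 50 bases after the annotated start) were matched for 8 of the 10 genes, CXCL16 and CCL2 being the exceptions. The following stretches are shown because they hold the matches to NF-kB motifs, and CXCL5 is among them although its change with MG63 was under 2-fold. CXCL3 and CXCL11 hold the same core and are not printed. They read 5′ to 3′ on the coding strand, and capitals mark a match to the kappa-B consensus or to its core GGAATTTCC, which overlaps it. They correspond to chr4:73869243-73869382 (plus strand) for CXCL1, chr4:74099206-74099345 (minus) for CXCL2, chr4:73998688-73998827 (minus) for CXCL5, chr4:73740419-73740558 (plus) for CXCL8, chr4:76023588-76023727 (minus) for CXCL10 and chr2:227813692-227813831 (plus) for CCL20.
CXCL1: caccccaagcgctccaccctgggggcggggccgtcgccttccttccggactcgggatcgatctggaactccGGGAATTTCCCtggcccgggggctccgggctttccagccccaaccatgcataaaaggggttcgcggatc
CXCL2: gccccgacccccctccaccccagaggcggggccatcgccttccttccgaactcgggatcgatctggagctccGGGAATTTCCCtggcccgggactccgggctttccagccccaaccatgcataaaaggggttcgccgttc
CXCL5: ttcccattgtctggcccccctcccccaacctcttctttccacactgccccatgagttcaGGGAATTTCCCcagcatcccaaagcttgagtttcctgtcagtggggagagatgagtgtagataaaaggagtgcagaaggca
CXCL8: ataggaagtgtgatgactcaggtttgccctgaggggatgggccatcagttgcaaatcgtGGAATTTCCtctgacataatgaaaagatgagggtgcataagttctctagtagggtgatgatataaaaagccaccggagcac
CXCL10: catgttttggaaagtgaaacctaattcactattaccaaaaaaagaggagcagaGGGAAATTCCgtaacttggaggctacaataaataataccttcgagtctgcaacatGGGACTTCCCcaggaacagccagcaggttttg
CCL20: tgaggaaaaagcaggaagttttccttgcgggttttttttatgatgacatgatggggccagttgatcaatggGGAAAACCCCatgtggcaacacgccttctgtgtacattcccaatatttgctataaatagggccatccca
With -1 as the base before the RefSeq start, GGAATTTCC begins at -78 in CXCL1, -77 in CXCL2, -78 in CXCL3, -90 in CXCL5 and -91 in CXCL8. It lies on the opposite strand in CXCL10 at -176 and in CXCL11 at -75. The core was thus found in 7 of the 8 promoters, CCL20 being the exception, against 0.472% of 27305 RefSeq promoters of the same length. The promoters of CXCL1, CXCL2 and CXCL3 are nearly the same sequence around the core, so their matches are not separate observations. The kappa-B consensus was also found in 7 of 8, CXCL8 being the exception, against 5.72% of all promoters, and CCL20 had its match at -79 on the opposite strand. The interferon-response-like sequence GAAANNGAA was found in 3 of 8 (CXCL2, CXCL3 and CXCL10) against 8.29%, and TATAAA in 3 of 8 (CXCL8, CXCL11 and CCL20) against 12.0%. Both strands were searched. These are letter matches in a reference sequence, and binding was not measured.

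**Figure D1:**
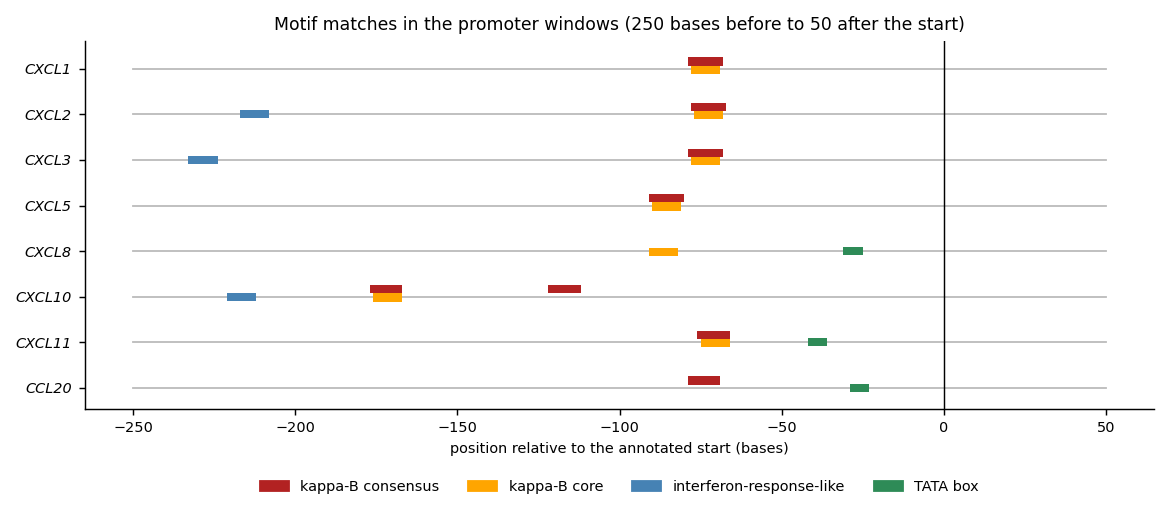
Motif matches in the 8 matched promoters, with the distance from the RefSeq start in bases on the horizontal axis and 1 row per gene; coloured bars stand for the motifs. The kappa-B matches of CXCL1, CXCL2, CXCL3, CXCL5, CXCL8, CXCL11 and CCL20 sit between -91 and -67, and those of CXCL10 lie farther out, at -177 and -122.

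The 12 mono-cultures without RANKL were sequenced more deeply, with 23932472 to 36719047 estimated counts per library, than the rest, with 9593426 to 15418211, and the medians had a ratio of 2.46. The estimated counts are abundances per transcript length (TPM) scaled to the library total, so they can be set side by side between genes, and 1 unit is not 1 read. Levels are given as CPM, these values scaled to a common library total. Multiplied by the length of the transcript, low values came in whole steps of a size that was fixed within a library, and reads were recovered by dividing by that step. Of the values under 50 reads in genes with 1 transcript, 65.7 to 69.6% per library were then whole within 0.05 reads. A single read was worth 2.15 to 2.51 estimated counts for CCL2, 2.00 to 2.33 for CCL20 and 0.937 to 1.09 for CXCL8. A library with 0 reads allows up to 3, in the mono-cultures at most 0.293 CPM for CCL2, 0.271 CPM for CCL20 and 0.127 CPM for CXCL8, and such limits cover counting error only. The 2 MG63 libraries of DU145 stood apart from each other, and leaving out replicate 1 or replicate 2 changed the number of genes called in that co-culture from 497 to 1680 or 204. Nothing in the labels says that replicates came from separate cultures, so p-values measure the spread between these libraries, which may be technical. In bulk RNA, fewer cells making a transcript and less transcript per cell cannot be told apart.

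In mono-culture, DU145 was the line with ELR+ chemokine transcripts. The 10 genes summed to 67.1 to 75.2 CPM in its 3 mono-cultures, and CXCL16 was 14.9 to 17.5% of that sum. In C4-2 the sum was 37.6 to 43.6 CPM, in C4-2B 35.8 to 40.9 CPM and in 22Rv1 22.6 to 24.0 CPM, and CXCL16 made up at least 98.2% of it in every mono-culture of these 3 lines. A change in the other 9 genes was therefore a change from very low levels in 3 of the lines.

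In the DU145 mono-cultures CXCL8, the ligand of CXCR1 and CXCR2, was at 20.8, 20.9 and 18.3 CPM. CXCL2 was at 19.8, 24.3 and 23.9 CPM, and CXCL5 at 8.42, 8.83 and 8.21 CPM. For each of these genes the 3 libraries lay close together. CXCL1 was at 3.80, 3.71 and 4.50 CPM, CCL20 at 2.18, 3.92 and 2.66 CPM, and CXCL3 at 1.80, 2.25 and 1.85 CPM. CXCL8 and CXCL2 were the highest of the 10 genes in DU145 and their ranges overlapped. CXCL16, at 10.3 to 12.6 CPM, came next and lay above CXCL5, which lay above CXCL1. The range of CCL20 overlapped those of CXCL1 and CXCL3. CXCL1, CXCL2 and CXCL3 are near-identical copies, and the estimation divides reads shared among them, so that the values of the individual genes are uncertain.

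The remaining genes were close to absent in DU145. CXCL10 was at 1 read in each mono-culture, CXCL11 at 4 reads in replicate 3 and 0 in the others, and CCL2 at 1 read in replicate 2 and 0 in the others. Apart from CXCL11 in that library, none of these exceeded the 3 reads that a library without a read allows.

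Fitted across 13437 genes with edgeR's quasi-likelihood test and Benjamini-Hochberg adjustment, all 6 chemokine genes that passed the filter on low counts were called between DU145 and each other line in mono-culture. A call here is an adjusted p under 0.05 with at least a 2-fold difference, and 39.7% of all tested genes were called against 22Rv1 (20.1% higher in DU145 and 19.6% lower), 39.0% against C4-2 (21.0% and 18.0%) and 40.0% against C4-2B (21.4% and 18.6%). The 6 were CXCL1, CXCL2, CXCL5, CXCL8, CXCL16 and CCL20, and since most of them reached the filter through DU145 libraries, the count by itself is no result about the chemokines. CXCL8 was higher in DU145 by 7.99 (log2) than in 22Rv1, by 7.92 than in C4-2 and by 9.56 than in C4-2B. CXCL5, another CXCR2 ligand, was higher by 8.91, 7.43 and 10.62 in the same order. Log2 differences of this size rest on few or no reads in the lower line and depend on the small count that the fit adds. No chemokine was called between C4-2 and C4-2B or between 22Rv1 and either of them, where 2.25% (C4-2B against C4-2), 28.5% (22Rv1 against C4-2) and 29.4% (22Rv1 against C4-2B) of genes were. DESeq2 called none either, and at an unadjusted p under 0.05 edgeR called 1 between C4-2B and C4-2 and 0 in the other two pairs. Fitted on the recovered reads, an alternative chosen after seeing the data, edgeR called CXCL5 between C4-2B, at 0 reads in each library, and C4-2, at 1, 1 and 3 reads (adjusted p = 0.0412).

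CXCL16 was instead lowest in DU145. Its mono-culture levels were 43.3, 40.7 and 37.5 CPM for C4-2 and 40.8, 35.7 and 36.1 CPM for C4-2B. Those for 22Rv1 were 22.4, 23.8 and 23.0 CPM, and those for DU145 were 10.3, 11.2 and 12.6 CPM. C4-2 and C4-2B overlapped, and 22Rv1 and DU145 each lay apart below them. The log2 difference of DU145 from C4-2 was -1.87 (adjusted p = 2.85e-11), from C4-2B -1.80 (adjusted p = 4.29e-11) and from 22Rv1 -1.01 ± 0.10 (SE; adjusted p = 8.91e-08). The last of these fell under 2-fold without 22Rv1 replicate 2 or DU145 replicate 1 or 2. 22Rv1 differed from C4-2 by -0.86 (adjusted p = 4.96e-07) and from C4-2B by -0.80 (adjusted p = 1.17e-06), which is under 2-fold, and the difference of C4-2B from C4-2 was -0.06 (adjusted p = 0.758).

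**Figure D2:**
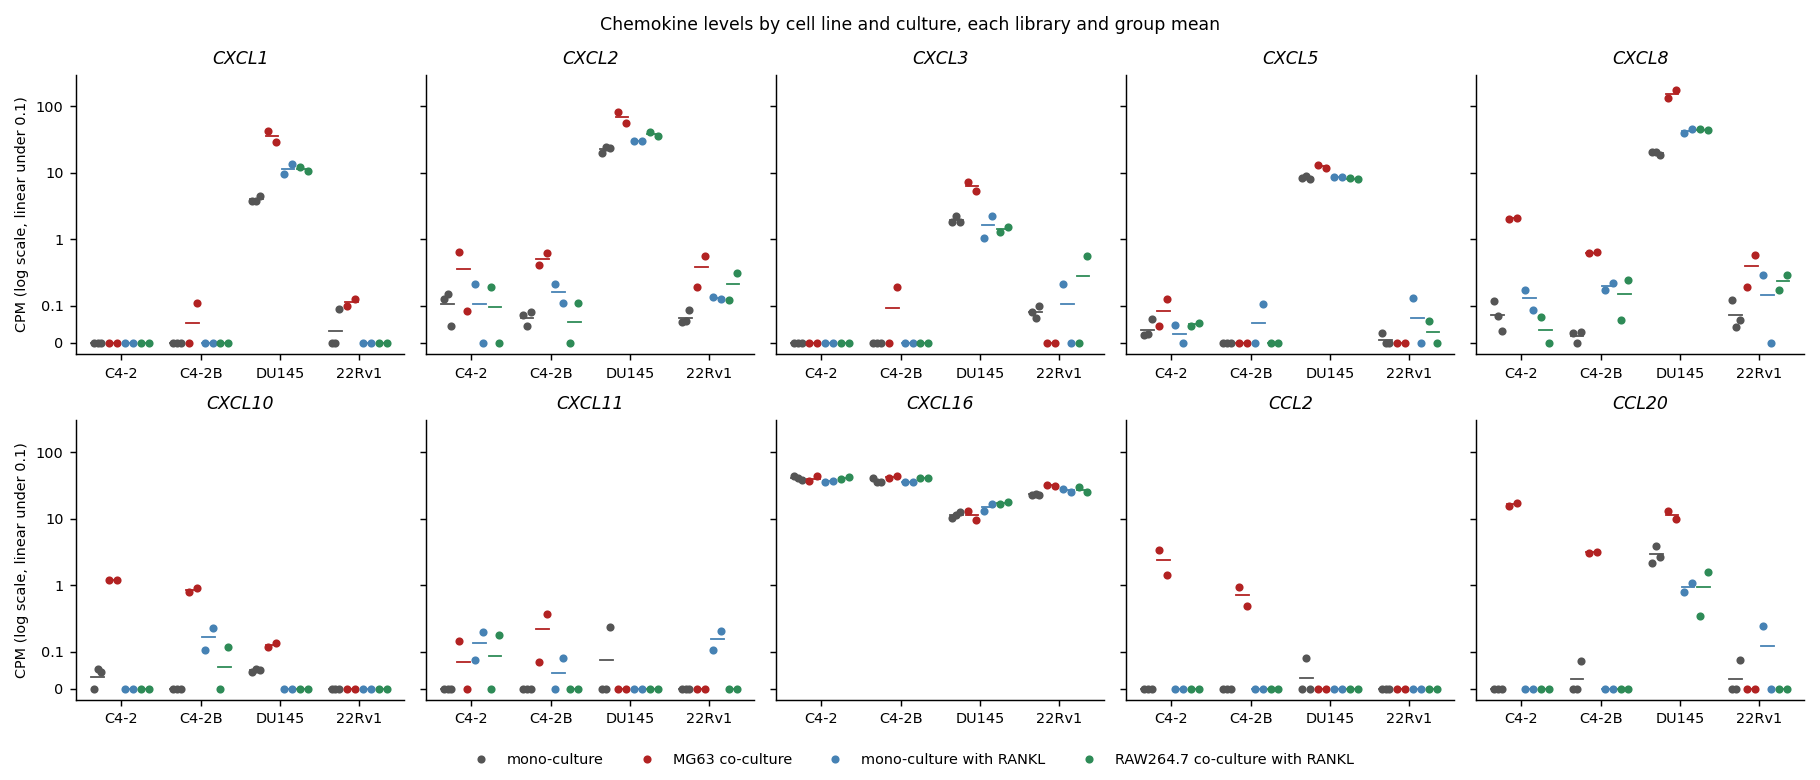
Levels of the 10 chemokine genes in CPM (vertical axis, logarithmic and linear under 0.1 CPM) by cell line, with colours for the cultures; each point is 1 of the 36 libraries and the dashes are group means. DU145 libraries lie highest for CXCL1, CXCL2, CXCL3, CXCL5 and CXCL8, CXCL16 is present in all lines, and CCL2 in C4-2 and C4-2B lies above 0 only in the MG63 co-cultures.

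Co-culture with MG63 asks how PCa cells respond to osteoblast-like cells. Every control here was a more deeply sequenced library and every co-culture a shallower one. In this comparison an effect of MG63 therefore cannot be told apart from a difference between these sets of libraries. All 4 lines had at least 1 chemokine gene called higher, and none had a chemokine called lower. Of the 6 genes tested, 4 were called higher in DU145, 3 in C4-2B, 2 in C4-2 and 1 in 22Rv1. Of all 13437 genes tested, 3.70% were called in DU145 (2.40% higher), 1.22% in C4-2B (0.677% higher), 1.58% in C4-2 (1.17% higher) and 1.99% in 22Rv1 (1.18% higher). Over all tested genes the median log2 change was -0.06 in DU145, -0.00 in C4-2B, -0.01 in C4-2 and 0.00 in 22Rv1. Of the 6 chemokines, CXCL1, CXCL2, CXCL5 and CXCL8 reached the filter through DU145 libraries alone, so their median there, 1.87, is a description. In the other 3 lines CXCL1, CXCL2 and CXCL5 had at most 5 reads in a library, and no median over the 6 genes is given.

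In DU145 CXCL1, CXCL2, CXCL8 and CCL20 rose. CXCL8 was at 133 and 175 CPM with MG63 (154 ± 30.0, SD, n = 2), against 18.3 to 20.9 CPM in mono-culture, a log2 change of 3.01 ± 0.13 (SE; adjusted p = 1.67e-09). CXCL1, a CXCR2 ligand, was at 35.9 ± 9.01 CPM (SD, n = 2), with the lower library at 29.5 CPM, against 3.71 to 4.50 CPM (3.24 ± 0.30, adjusted p = 7.90e-05). CXCL2 was at 83.4 and 56.1 CPM against 19.8 to 24.3 CPM (1.70 ± 0.20, adjusted p = 5.80e-05). In all 3 genes both MG63 libraries lay above every mono-culture, with replicate 1 the higher for CXCL1 and CXCL2 and replicate 2 for CXCL8. CCL20, the CCR6 ligand, was at 12.8 and 9.77 CPM against 2.18 to 3.92 CPM, again without overlap (2.04 ± 0.36, adjusted p = 0.00161). CXCL5 was at 13.2 and 12.0 CPM against 8.21 to 8.83 CPM, and its change of 0.64 ± 0.22 had an adjusted p of 0.0441 but was under 2-fold. CXCL16 was at 12.9 and 9.66 CPM, around its mono-culture range, with a change of 0.08 ± 0.13 (adjusted p = 0.682). Fitted on DU145 libraries alone, 8 genes in all were called in place of 497, and CXCL2 (adjusted p = 0.0774) and CCL20 (adjusted p = 0.131) were no longer called, while CXCL1 and CXCL8 were (adjusted p = 0.0256 each). Against the RANKL mono-cultures as controls all 4 were called, with log2 changes of 1.85 for CXCL8, 1.64 for CXCL1, 1.22 for CXCL2 and 3.59 for CCL20.

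CXCL3 did not reach the filter, and it was read from a fit without a filter that was chosen after seeing the data, in which 2.51% of 24182 genes were called in DU145 (1.74% higher). It was at 7.21 and 5.35 CPM with MG63 against 1.80, 2.25 and 1.85 CPM in mono-culture, without overlap (1.78 ± 0.45, adjusted p = 0.0218). The call was lost in 7 of 26 alternative analyses (adjusted p up to 0.124), among them those without any 1 of the 5 libraries. Without filter 5 of the 10 genes were called higher in DU145. CXCL10 stayed at 1 read in each library with MG63, and CXCL11 and CCL2 were at 0 there. The 10 genes together summed to 297 to 305 CPM in the DU145 co-cultures, of which CXCL16 was 3.25 to 4.23%. CXCL8 was the highest of the 10 in both libraries, CXCL2 came next and CXCL1 after it, without overlap of their ranges.

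In C4-2 the largest change was in CCL20. None of the 3 mono-cultures held a read of it, and the MG63 libraries held 108 and 132 reads (15.5 and 17.3 CPM, 16.4 ± 1.26, SD, n = 2). Against the floor of 3 reads in 1 control library, the lower of these was at least 67.6-fold higher and their mean at least 71.5-fold (edgeR adjusted p = 8.65e-07). CCL2, the monocyte attractant, was at 0 in mono-culture and at 22 and 10 reads with MG63 (3.37 and 1.43 CPM), at least 5.80-fold higher in the lower of these libraries, and at least 9.73-fold in their mean, than 3 reads of CCL2 in 1 control library. Both genes had reads in both co-culture libraries and none in the controls. CXCL8 was at 2.04 and 2.09 CPM, or 30 and 31 reads, against 4, 2 and 1 reads in mono-culture, 27.8-fold higher in mean CPM (adjusted p = 2.04e-06). CXCL10, the CXCR3 ligand, was at 12 and 13 reads against 0, 1 and 1, a ratio of 39.3 between summed reads scaled to depth (exact 95% counting interval 9.80 to 342). CXCL2 did not separate, at 5 and 1 reads against 3, 3 and 1. CCL2 and CXCL10 were below the filter, and in the fit without it, in which 1.00% of genes were called in C4-2 (0.686% higher), they had adjusted p-values of 0.00859 and 0.00632 and 4 of 10 genes were called. DESeq2 and leaving out MG63 replicate 1 ended both calls, the replicate block that for CCL2, and leaving out MG63 replicate 2 that for CXCL10 (adjusted p up to 0.157 for CCL2 and 0.0524 for CXCL10). CCL20 stayed below CXCL16 in both libraries, which was at 36.6 and 43.3 CPM.

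In C4-2B, a bone-derived subline of C4-2, CCL20, CXCL8, CCL2 and CXCL10 were also higher with MG63, at lower levels than in C4-2. CCL20 was at 21 reads in each MG63 library (3.04 and 3.18 CPM) against 0, 0 and 1 read, a ratio of 152 (exact 95% counting interval 25.8 to 6130, adjusted p = 8.51e-05). CXCL8 was at 9 reads in each (0.619 and 0.635 CPM) against 1, 0 and 1, a ratio of 32.5 (7.78 to 289, adjusted p = 5.33e-04). CXCL10 was at 8 and 9 reads (0.799 and 0.922 CPM) against 0 in all 3 mono-cultures. Against 3 reads in 1 of these, the lower MG63 library was at least 5.66-fold higher and the mean at least 6.09-fold. CCL2 was at 6 and 3 reads (0.948 and 0.486 CPM) against 0, and since replicate 2 was at the floor no fold is given. All 4 genes were above every mono-culture of this line. In the fit without a filter, in which 0.724% of genes were called (0.380% higher), 5 of 10 genes were called, with adjusted p-values of 0.0314 for CCL2 and 0.00374 for CXCL10. CXCL2 was at 3 and 5 reads (0.406 and 0.624 CPM) against 2, 1 and 2, and its call (adjusted p = 0.0318) was lost in 8 of 28 alternative analyses (adjusted p up to 0.520), among them those without any 1 of the 5 libraries. Against the RANKL mono-cultures as controls the log2 change of CXCL8 was 1.64 (adjusted p = 0.301). The call for CCL2 was lost in 10 of 26 alternative analyses (adjusted p up to 0.322), namely with DESeq2, with the replicate block, against the RANKL mono-cultures, and without any 1 of the 5 C4-2B libraries or either MG63 library of C4-2. That for CXCL10 was lost in 2 of 26, with DESeq2 and against the RANKL mono-cultures (adjusted p up to 0.530). The test of the difference between the MG63 effects in C4-2B and C4-2, in which 0.179% of genes were called, called none of the 6 tested chemokines, and for CCL20 that difference was -5.16 ± 1.98 (SE; adjusted p = 0.717).

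In 22Rv1, CXCL8 was the 1 chemokine called with MG63, at few reads. CXCL8 was at 3 and 4 reads with MG63 (0.194 and 0.592 CPM) against 3, 1 and 2 reads in more deeply sequenced libraries, a log2 change of 2.36 ± 0.67 (adjusted p = 0.0207). The call was lost in 6 of 28 alternative analyses (adjusted p up to 0.440), among them the fit on recovered reads (1.77, adjusted p = 0.0823) and those without MG63 replicate 2 or mono-culture replicate 2 or 3. In the fit without a filter it was also the 1 chemokine called of 10, where 1.23% of genes were (0.670% higher). CCL20 was at 0 in both MG63 libraries, with 1 read in 1 mono-culture, and CXCL10 and CCL2 were at 0 in all 22Rv1 libraries. CXCL16 was at 32.0 and 31.0 CPM against 22.4 to 23.8 CPM, without overlap, a change of 0.56 ± 0.11 (adjusted p = 0.00190) that was under 2-fold. Among the genes not yet described in C4-2, C4-2B and 22Rv1, CXCL1 was at most 0.126 CPM in any library, CXCL5 at most 0.132, CXCL11 at most 0.367 and CXCL3 at most 0.554 CPM. None of these exceeded 3 reads in a library. CXCL2 in 22Rv1 was at 2 and 5 reads with MG63 against 1, 1 and 2 reads in mono-culture. It was not called (adjusted p = 0.0588), while the fit on recovered reads (2.31, adjusted p = 0.0343) and DESeq2 called it. In the MG63 co-cultures of C4-2, CXCL16 was at 36.6 and 43.3 CPM and in those of C4-2B at 40.7 and 44.3 CPM with MG63, each overlapping its mono-cultures.

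Because MG63 is itself a human line, its transcripts could be counted as those of the PCa cells. The summed level of 14 osteoblast and mesenchymal genes was 10.3 to 14.9 CPM in the C4-2 co-cultures against 11.1 to 11.5 CPM in mono-culture, 11.6 to 11.7 against 10.3 to 10.8 CPM in C4-2B, 9.11 to 15.9 against 8.99 to 11.2 CPM in DU145 and 66.8 to 69.6 against 48.3 to 52.2 CPM in 22Rv1. It thus lay above every mono-culture in both co-cultures of C4-2B and 22Rv1 and in 1 each of C4-2 and DU145. Of its 5 genes that passed the filter, none was called in C4-2 or C4-2B, 1 was called higher in 22Rv1 (RUNX2), and 1 higher (COL5A2) and 1 lower (RUNX2) in DU145. Of the 14 genes, 10 exceeded 3 reads in a C4-2 co-culture library, 11 in C4-2B, 9 in DU145 and 12 in 22Rv1. In the more deeply sequenced mono-cultures 13, 11, 10 and 12 did, in the same order. COL1A2 was at most 0.141 CPM in the MG63 co-cultures of C4-2 and C4-2B, and POSTN was at 0 in those of C4-2, C4-2B and DU145. These 2 genes do not stand for the list, and MG63 cells alone are not among these libraries. RUNX2, an osteoblast transcription factor that prostate cancer cells can also express, was at 4.09 to 4.44 CPM in the C4-2 co-cultures against 2.63 to 3.03, and at 4.35 to 5.33 against 3.32 to 3.65 CPM in C4-2B. In 22Rv1 most of the higher sum was TWIST1, at 40.6 to 43.7 against 27.3 to 30.4 CPM, and in DU145 COL5A2 was at 2.75 to 6.09 against 1.95 to 2.44 CPM. The part of these higher sums in the chemokine values was not tested in any line.

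**Figure D3:**
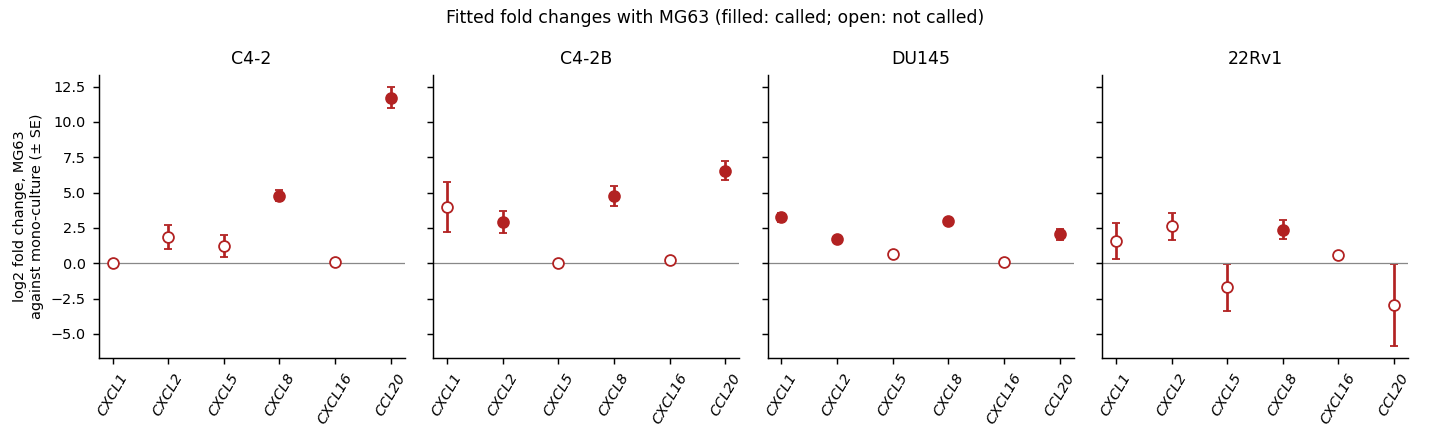
Fitted log2 change with MG63 against mono-culture (vertical axis, with standard errors) for the 6 tested chemokine genes in each line; filled points were called and open points were not. CCL20 in C4-2 lies highest at 11.71, followed by CCL20 in C4-2B at 6.55, and folds against controls at or near 0 depend on the count the fit adds.

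The effects of MG63 were compared between BPCa and LPCa cells by the test of the difference itself, where a call is an adjusted p under 0.05 with no fold threshold and 9.85% of all genes were called (4.85% with the larger value in BPCa cells). CCL20 had a larger effect in BPCa cells by 9.58 ± 1.62 (log2, SE; adjusted p = 0.00350), and CXCL8 by 2.09 ± 0.58 (adjusted p = 0.0336). The CCL20 value rests on zeros, since C4-2 had 0 in every mono-culture and 22Rv1 had 1 read in 1 library of 5. Without that mono-culture library, replicate 3 of 22Rv1, 22Rv1 had no read in either group and the call was lost (adjusted p = 1.00), and that for CXCL8 was lost in 13 of 26 alternative analyses (adjusted p up to 0.0992), without a filter and without any 1 of these libraries: 22Rv1 MG63 replicate 1 and mono-culture replicates 1 and 3, C4-2 MG63 replicates 1 and 2 and mono-culture replicates 2 and 3, and all 5 of C4-2B. In CPM, the CXCL8 level with MG63 was 154 ± 30.0 in DU145 against 2.07 ± 0.0305 in C4-2 and 0.627 ± 0.0114 in C4-2B (SD, n = 2 each), so the larger fold did not go with the larger level. Between DU145 and 22Rv1, where 10.4% of genes differed in effect, none of the 6 chemokines was called. On recovered reads CXCL16 passed that test (-0.36, adjusted p = 0.0485), a difference under 2-fold.

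RANKL was added to mono-cultures as the control for the osteoclast co-culture, and the comparison with mono-culture without it shares those control libraries with the MG63 comparison. It also shares the difference in depth, from which an effect of RANKL cannot be told apart. In DU145, CXCL1 was at 9.58 and 13.4 CPM with RANKL against 3.71 to 4.50 CPM (1.62 ± 0.29, adjusted p = 6.73e-04), and CXCL8 at 39.6 and 45.3 CPM against 18.3 to 20.9 CPM (1.19 ± 0.14, adjusted p = 3.61e-07). Both genes lay above all 3 controls and below both MG63 libraries. CCL20 moved the other way, at 0.798 and 1.06 CPM against 2.18 to 3.92 CPM, without overlap, and its change of -1.53 ± 0.56 (adjusted p = 0.0460) was lost in 7 of 27 alternative analyses (adjusted p up to 0.215), among them those without mono-culture replicate 2 or 3 or either RANKL library. CXCL2 was at 29.8 and 30.2 CPM (0.51 ± 0.20, adjusted p = 0.0490) and CXCL16 at 13.0 and 16.5 CPM (0.48 ± 0.11, adjusted p = 0.00172), both under 2-fold. CXCL5 was at 8.57 and 8.69 CPM, within its mono-culture range (0.13, adjusted p = 0.732). Thus 2 of the 6 genes were called higher and 1 lower in DU145, where 5.21% of all genes were called (2.77% higher and 2.44% lower). In the other lines edgeR called none of the 6, where 2.27% of genes were called in C4-2, 2.13% in C4-2B and 2.18% in 22Rv1, and CCL2 and CCL20 were at 0 in every RANKL library of C4-2 and C4-2B. At an unadjusted p under 0.05, or by DESeq2, 1 of the 6 was called in C4-2B and 0 in C4-2 and 22Rv1. CXCL8 in C4-2B was at 2 reads in each RANKL library. CXCL3 in DU145 was at 1.04 and 2.26 CPM with RANKL, overlapping its mono-cultures, CXCL10 was at 1 and 2 reads in C4-2B and 0 in the other lines, and CXCL11 was at most 1 read in any RANKL mono-culture.

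The DU145 cultures with RANKL also differed in epithelial genes. EPCAM was at 84.5 to 89.9 CPM in RANKL mono-culture and 79.4 to 86.1 CPM with RAW264.7, against 14.5 to 21.6 CPM in mono-culture without RANKL and 12.0 to 20.5 CPM with MG63, and CDH1 was at 21.7 to 24.7 and 21.0 to 29.7 against 10.0 to 13.6 and 6.04 to 6.99 CPM. The sum of 10 prostate and epithelial genes also moved in the other lines. In C4-2 it was 6889 to 7040 CPM with MG63 and 6862 to 6971 in RANKL mono-culture, against 8122 to 8394 in mono-culture without RANKL. In C4-2B it was 6929 to 7160 and 6047 to 6099 against 8833 to 9261 CPM, and in 22Rv1 2100 to 2120 and 1841 to 1883 against 1749 to 1818 CPM. The labels give no batch, and the part of these differences in the chemokine values was not tested.

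Co-culture with RAW264.7 was compared with RANKL mono-culture. Of the 10 chemokines 5 were tested, and none was called in any line, against 0% of 11525 genes called in C4-2, 0.0260% in C4-2B, 0.0174% in DU145 and 0.00868% in 22Rv1. Outside DU145 only CXCL16 of the tested chemokines was above a few reads in these libraries. In edgeR's test at an unadjusted p under 0.05 and 2-fold, 43 genes were higher and 43 lower in C4-2, DESeq2 called 5 (0.0434%) in C4-2 and in DU145 and 2 (0.0174%) in C4-2B and in 22Rv1, and none of the tested chemokines was among the calls of either kind in any line. In DU145, where the 10 genes summed highest, CXCL8 was at 45.9 and 43.4 CPM with RAW264.7 against 39.6 and 45.3 CPM, and the ranges overlapped (0.06). CXCL1 was at 12.1 and 10.8 CPM against 9.58 and 13.4 CPM (-0.02), again with overlap. CXCL2 was at 41.5 and 36.1 CPM against 29.8 and 30.2 CPM and CXCL16 at 16.4 and 18.0 CPM against 13.0 and 16.5 CPM, with log2 changes of 0.36 (adjusted p = 0.787) and 0.21 (adjusted p = 0.813). The ranges of CXCL2 did not overlap, and those of CXCL16 did. CXCL5 was at 8.37 and 7.99 CPM (-0.09) and CCL20, below the filter of this fit, at 0.349 and 1.55 CPM. CCL2 and CCL20 were at 0 in all RAW264.7 libraries of C4-2 and C4-2B. CXCL3 in DU145 was at 1.29 and 1.54 CPM, within its RANKL range, and CXCL10 and CXCL11 were at most 1 read in any RAW264.7 library. RAW264.7 is a mouse line, so its transcripts could be counted only where they match a human sequence, and the macrophage gene TYROBP was at 0 in all libraries. The summed level of 10 macrophage and osteoclast genes was 62.9 to 64.5 CPM in the DU145 co-cultures with RAW264.7 and 61.7 to 65.7 CPM in the RANKL mono-cultures.

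**Figure D4:**
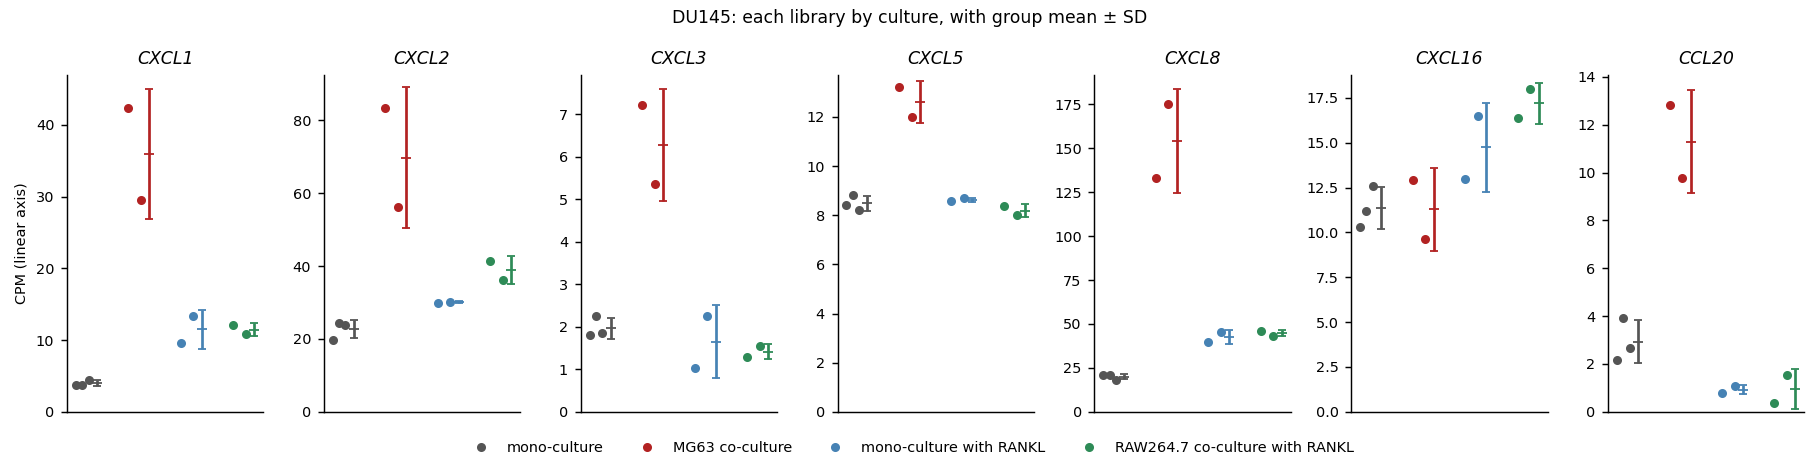
Levels in DU145 of 7 chemokine genes in the 4 cultures, in CPM on linear axes from 0 that differ between genes; each point is 1 library and the bars give the group mean ± SD. The MG63 libraries lie above all others for CXCL1, CXCL2, CXCL3, CXCL5, CXCL8 and CCL20, and CCL20 lies lower with RANKL than without it.

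The receptors through which these chemokines were said above to act were scarce in the PCa cells. CXCR1 was at most 0.0942 CPM in any library, CXCR2 at most 0.281, CXCR3 at most 0.0852, CCR2 at most 0.181 and CCR6 at most 0.255 CPM. CXCR6, the receptor of CXCL16, was at 0.108 to 1.04 CPM. Of 23 receptor genes, 3 passed the filter, namely CXCR4, CCR10 and the scavenging receptor ACKR3. With MG63, CCR10 was called higher in DU145 (1.08, adjusted p = 0.00297) and ACKR3 in C4-2B (1.11, adjusted p = 0.0410), and no receptor was called in C4-2 or 22Rv1. With RANKL, ACKR3 was called higher in C4-2 (1.77), C4-2B (1.51) and DU145 (2.19), and CXCR4 lower in DU145 (-1.51, adjusted p = 0.00118).

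Of 34 other chemokine ligands, 5 passed the filter. CXCL13, which draws B cells, was called lower with MG63 in C4-2 (-1.27), C4-2B (-1.44) and 22Rv1 (-1.08). CCL5 was called lower in DU145 (-1.14) and XCL1 in 22Rv1 (-1.18). With MG63 no other ligand was called higher in any line. With RANKL, against the same control libraries, CXCL13 was called lower in C4-2 (-2.08) and C4-2B (-1.52) and higher in 22Rv1 (1.81), and CCL5 lower in DU145 (-3.74).

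NF-kB target and feedback genes were taken as the neighbouring pathway, and 19 of 22 passed the filter. With MG63, 7 were called higher in DU145, 4 in C4-2, 3 in C4-2B and 1 in 22Rv1, none was called lower, beside 2.40, 1.17, 0.677 and 1.18% of all tested genes called higher, and the list's median log2 change was 0.82, 0.63, 0.31 and 0.42 in the same order of lines, beside the medians over all genes given above. In C4-2 the called genes were the apoptosis inhibitor BIRC3 (2.44), the NF-kB inhibitor TNFAIP3 (1.72), the adhesion molecule ICAM1 (1.61) and BCL3 (1.28). In DU145 they included CSF2, the granulocyte-macrophage growth factor (4.66, adjusted p = 7.84e-04), RELB (2.00), IL6 (1.48), SOD2 (1.16) and NFKBIA (1.15). BIRC3, TNFAIP3 and ICAM1 were called in C4-2B and BCL3 (1.04) in 22Rv1. With RANKL, CSF2 (2.52) and TNFAIP3 (1.39) were called higher in DU145 and LIF (1.22) in C4-2, while TNFAIP2 (-1.07) was called lower in C4-2B and RELB in 22Rv1, where its RANKL libraries were near 0.

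Interferon-stimulated genes were called with MG63 in the BPCa lines, where CXCL10 was also higher. Of 16 of 22 that passed the filter, 3 were called higher in C4-2 (GBP2 3.31, IRF1 2.07, IFI44 1.81) and 4 in C4-2B (IFIT2 2.49, IFIT3 1.88, IRF1 1.87, IFI35 1.02), beside 1.17 and 0.677% of all tested genes, with list medians of 0.75 and 0.55 against -0.01 and -0.00 over all genes. In DU145 and 22Rv1 none was called and the medians were 0.01 and -0.02. With RANKL, GBP2 was called higher in C4-2 (3.25) and C4-2B (1.08), CMPK2 in C4-2 (1.26), OAS3 in DU145 (1.25) and IFI6 in 22Rv1 (1.26). With RAW264.7 no gene of any of these lists was called.

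**Figure D5:**
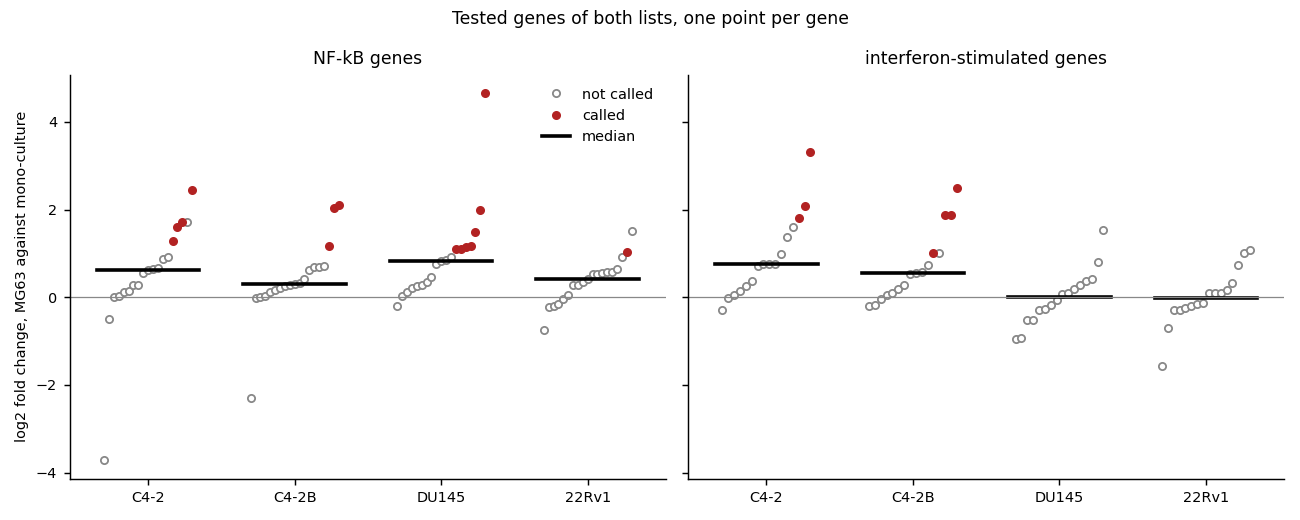
Log2 change with MG63 against mono-culture for each tested NF-kB gene (left) and interferon-stimulated gene (right), by line; each point is 1 gene, filled points were called and the bar marks each list's median. The NF-kB median lies at 0.82 in DU145 and 0.63 in C4-2, and the interferon median at 0.75 in C4-2 and 0.01 in DU145.

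Other genes whose levels followed each chemokine were sought over the 16 group means, centred on each line, among 13453 genes. This is a description, since the points share libraries and depth, and with 13453 genes some will lie close to any profile. The closest to CCL20 were SAA2 (Pearson r = 0.98), SAA1 (0.97) and the calprotectin subunit S100A9 (0.96). SAA1 and SAA2, near-identical genes of the serum amyloid A proteins between which reads are divided, were high in the MG63 co-cultures of C4-2, C4-2B and DU145. SAA1 was at 0 in the C4-2 mono-cultures and at 18.4 to 19.7 CPM with MG63, and in C4-2B at 0 and at 8.55 to 9.43 CPM. In DU145 it was at 3.97 to 4.63 CPM in mono-culture and 28.1 to 46.6 CPM with MG63, and it was lower with RANKL, at 0.231 to 0.484 CPM, as CCL20 was. In 22Rv1 it did not exceed 0.257 CPM. The closest to CXCL1 was CSF2 (r = 0.99), which in DU145 was at 0.343 to 0.758 CPM in mono-culture, 11.5 to 13.0 CPM with MG63, 2.71 to 2.76 CPM with RANKL and 3.51 to 3.57 CPM with RAW264.7. Outside DU145, CXCL1 and CXCL5 had at most 3 reads in any library, so their r values rest mostly on the DU145 means. CEBPD (0.90) was among the closest to CXCL8. The closest to CXCL2 were PTGES2, EPPK1 and ALG3 (0.92 each) and to CXCL16 P2RY2 (0.89). PSMA3, the closest to CXCL8, and PTMA, the closest to CXCL5 (0.94 each), rest on a DU145 mean with MG63 over libraries that disagreed, at 285 and 486 CPM for PSMA3 and 2133 and 5167 CPM for PTMA. The same libraries also disagreed for EPPK1, which did not exceed 0.760 CPM in them.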

How the data were processed

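RNA was extracted from the PCa cells on day 5, poly-A selected and sequenced as strand-specific libraries. The deposited table holds estimated counts per transcript that the authors made with kallisto and tximport as TPM scaled to the library total, so that a unit is not a read and the tests weigh short transcripts as if they had more reads than they had; the submitters' notes also name FastQC and hg19, and the table gives no coordinates. Of its 161149 lines, 159837 are separate transcripts; each was used once and summed per gene symbol, and the 0.526 to 0.764% of counts without a symbol stayed out. All 36 sample columns were used and 0 were left unused. Sums were rounded to whole numbers and fitted with edgeR 4.0.16 (R 4.3.3) by the quasi-likelihood test with TMM normalization, keeping genes that reached 100 estimated counts in 1 or more libraries. The 20 libraries without RANKL gave the MG63 comparisons, the pairs of lines and the differences of effect, all 36 gave the RANKL comparison, and the 16 with RANKL gave the RAW264.7 comparison. A gene was called at a Benjamini-Hochberg adjusted p under 0.05, over all genes tested, with at least a 2-fold change, except that differences of effect were called by the adjusted p alone. CXCL3, CXCL10 and CCL2 did not reach the filter and were read from a fit without it, which is less reliable at these depths. Alternatives were DESeq2 1.42.0, library-size scaling, lower filters, thinned mono-cultures, RANKL mono-cultures as controls, fits of 1 line, a replicate block, leaving out each library and, chosen after seeing the data, reads recovered with GENCODE 29 transcript lengths in place of the estimated counts. Fits were tested on simulated data with 200 changed genes. Levels and motif matches were computed in Python 3.11.15 with scipy 1.17.1, gene positions come from GENCODE 29 and promoters from RefSeq. All 10 chemokines are named; of the other lists, called genes are named, at most 5 a comparison by size, and for likeness the 3 genes of highest Pearson r of log2(CPM + 0.5) per chemokine. The members and lists were chosen with earlier results of these data known. A few of the genes these rules would name are not reported here.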

Additional observations from a re-analysis of the deposited data

Results flagged for a closer look

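The effect of MG63 differed between BPCa and LPCa cells for 2 of the tested chemokines, by edgeR's test of the difference of the log2 changes with Benjamini-Hochberg adjustment. CCL20 had a difference of 9.58 ± 1.62 (SE; adjusted p = 0.00350), and both MG63 libraries of C4-2 and of C4-2B lay above all their mono-cultures, while both of 22Rv1 were at 0. In DU145 they lay above the mono-cultures as well, at 12.8 and 9.77 CPM against 2.18 to 3.92 CPM. Without 22Rv1 mono-culture replicate 3, which held the 1 read of CCL20 in that line's libraries without RANKL, the CCL20 call was lost (adjusted p = 1.00). CXCL8 had a difference of 2.09 ± 0.58 (adjusted p = 0.0336), and its MG63 libraries lay above all mono-cultures in C4-2, C4-2B and DU145. This call was lost in 13 of 26 alternative analyses (adjusted p up to 0.0992), among them those without any 1 of the 5 C4-2B libraries. In 22Rv1 the MG63 libraries also lay above the mono-cultures for CXCL8, at few reads. MG63 replicate 1 was at 0.194 CPM and replicate 2 at 0.592 CPM, against 0.0425 to 0.121 CPM. Both differences compare 2 lines with 2 lines, and C4-2B is a subline of C4-2.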

How the results depend on the processing

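Of 1265 alternative values for single chemokines, 1193 kept their direction and their side of the threshold, 66 lost the call and 6 changed sign, none of these 6 called in either fit. In DU145, CXCL16 with MG63 (0.08) was at -0.37 against the RANKL mono-cultures and at -0.16 (without MG63 replicate 1) to 0.26 when 1 library was left out. With RAW264.7 in DU145, leaving out 1 library gave a log2 change of -0.23 to 0.23 for CXCL1 and -0.02 to 0.15 for CXCL8, with CXCL8 at -0.00 without RAW264.7 replicate 1 and CXCL1 at 0.08 without RAW264.7 replicate 2. The calls for CCL20 and CXCL8 in C4-2, CCL20 in C4-2B, and CXCL1 and CXCL8 in DU145 with MG63 or with RANKL were kept wherever they were tested. The number of chemokines called with MG63 in 22Rv1 was 1, and it was 2 with DESeq2 or unadjusted p-values, 0 with thinned mono-cultures, RANKL mono-cultures as controls or 22Rv1 libraries alone, and 0 to 2 when 1 library was left out. In C4-2 it was 2, against 4 with a minimum of 10 counts or no filter and 1 with C4-2 libraries alone. In C4-2B it was 3, against 5 with either lower filter, 1 with RANKL mono-cultures as controls and 0 with C4-2B libraries alone. In DU145 it was 4, against 2 with DU145 libraries alone. In fits of C4-2, C4-2B or 22Rv1 alone fewer chemokines reached 100 counts and were tested, CXCL8 in none of the 3. With RANKL in C4-2B it was 0, against 1 with DESeq2, library-size scaling, a minimum of 10 counts or unadjusted p-values, and 0 to 1 when 1 library was left out. Between 22Rv1 and C4-2 or C4-2B it was 0, against 1 with either lower filter, and between C4-2B and C4-2 it was 0, against 1 unadjusted or on recovered reads. For the difference of the MG63 effect between BPCa and LPCa it was 2, against 1 with no filter and 0 to 2 when 1 library was left out. For that between C4-2B and C4-2 and that between DU145 and 22Rv1 it was 0, against 1 unadjusted in each and 1 on recovered reads for the latter, and 0 to 1 for the latter when 1 library was left out. The cause of these changes was otherwise not tested.

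Same-numbered libraries did not deviate together (24 correlations of -0.08 to 0.06), so no strong pairing by number was seen. The check could miss a weak shared shift and does not settle whether cultures were paired. With the replicate block the number called with MG63 was 1 in 22Rv1, 2 in C4-2, 2 in C4-2B and 4 in DU145, with RANKL in DU145 it was 2, and CXCL2 in C4-2B (adjusted p = 0.0515) and CCL20 with RANKL in DU145 (adjusted p = 0.0880) were no longer called, nor were CCL2 in C4-2 and C4-2B and CXCL3 in DU145 without a filter.

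Over all genes, fits of 1 line alone called 138 with MG63 in C4-2 and 8 in DU145, against 212 and 497. Unadjusted p-values gave 351 in C4-2 and 323 against 164 in C4-2B, 432 against 286 with RANKL in C4-2B, and 3703 against 1323, 3605 against 1399 and 766 against 24 for the differences of effect between BPCa and LPCa, DU145 and 22Rv1, and C4-2B and C4-2. For the last, DESeq2 called 89, no filter 9 and recovered reads 50, and for the first recovered reads called 2080. Alternatives for RAW264.7 other than unadjusted p-values called 0 to 5 per line. Leaving out 1 library gave as few as 90 with MG63, and 0 to 5873 for the differences of effect. Library-size scaling moved the median log2 change of all genes with MG63 to between -0.13 and -0.06, and the share of calls that were higher with MG63 from 74.1 to 59.9% in C4-2 and from 64.8 to 54.6% in DU145. In 22Rv1 159 higher and 109 lower calls became 119 and 164. With RANKL in DU145 that share went from 53.2 to 41.1%. Depth limits CXCL10, CXCL11, CCL2 and, outside DU145, most other chemokines to a few reads per library.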
